A study of Homo sapiens with 12 samples.

Results

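Expression of 10 immediate early genes, EGR1, EGR2, EGR3, EGR4, IER2, IER3, IER5, NR4A1, SRF and ZFP36, was examined in SW480 and DLD1 colorectal cancer cells grown with or without lactate. They were taken by name from a table of read counts over 54261 gene symbols. Of the 10 genes, 9 passed the filter on low counts, which kept 17572 genes in all, and IER3 was listed at 0 in every library. The groups were SW480 control, SW480 lactate, DLD1 control and DLD1 lactate, with 3 libraries each, called biological replicates in the series' design text. The controls received no lactate. Neither the dose nor the duration of the lactate treatment is given in the sources used here.

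Immediate early genes are transcribed within minutes of a signal, from factors already present in the cell, and their RNAs are short-lived. At many of them the serum response factor SRF sits on a DNA element called the CArG box, a run of A and T bases between CC and GG. The SRF partners of the ELK family then pass on signals from the ERK kinases, and the MRTF partners pass on signals from the actin cytoskeleton. EGR1 to EGR4 encode related zinc finger transcription factors, and NR4A1 an orphan nuclear receptor. ZFP36, or tristetraprolin, binds AU-rich elements in messenger RNAs and speeds their decay. IER2 and IER5 encode nuclear regulators, IER5 being known for its action on heat shock factor HSF1, and IER3 encodes a protein that acts on cell survival.

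RefSeq promoter windows on GRCh38.p14, from 250 bases before to 50 bases after an annotated start, were searched for 8 of the genes in 12 windows. No window of EGR3 or IER3 was searched. A CArG box was found in windows of 3 of the 8 genes, EGR1, EGR2 and SRF, and in 1.3% of all 34943 windows. The first count is by gene and the second by window, and EGR2, SRF and NR4A1 have more than 1 window. The same holds for the other motifs below. The sequences upstream of the start are shown for these 3 genes because SRF is among the genes described and binds this element, and for ZFP36 because its RNA changed most with lactate in SW480. Capitals mark the CArG boxes, and each line runs 5′ to 3′ on the strand of the gene. The EGR1 stretch is chr5:138465229-138465478 on the plus strand, the EGR2 stretch chr10:62816367-62816616 on the minus strand, inside the annotated gene, and the SRF stretch chr6:43171019-43171268 on the plus strand. The ZFP36 stretch, chr19:39406597-39406812 on the plus strand, stops where GENCODE 29 places the first exon of a transcript.
EGR1: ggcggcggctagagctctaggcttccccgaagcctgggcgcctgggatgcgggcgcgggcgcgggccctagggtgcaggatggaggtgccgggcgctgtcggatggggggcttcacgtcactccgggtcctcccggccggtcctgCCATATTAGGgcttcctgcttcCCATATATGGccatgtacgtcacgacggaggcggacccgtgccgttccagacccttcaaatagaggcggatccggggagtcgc
EGR2: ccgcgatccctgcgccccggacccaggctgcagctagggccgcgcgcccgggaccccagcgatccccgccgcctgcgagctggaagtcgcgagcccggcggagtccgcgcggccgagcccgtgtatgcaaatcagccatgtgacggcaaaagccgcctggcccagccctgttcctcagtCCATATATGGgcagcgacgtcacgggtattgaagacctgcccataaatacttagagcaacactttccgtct
SRF: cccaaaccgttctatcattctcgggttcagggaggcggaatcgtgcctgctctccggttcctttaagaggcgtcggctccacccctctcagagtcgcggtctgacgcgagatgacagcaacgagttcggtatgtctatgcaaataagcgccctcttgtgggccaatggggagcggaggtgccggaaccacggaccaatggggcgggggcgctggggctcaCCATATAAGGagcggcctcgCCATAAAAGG
ZFP36: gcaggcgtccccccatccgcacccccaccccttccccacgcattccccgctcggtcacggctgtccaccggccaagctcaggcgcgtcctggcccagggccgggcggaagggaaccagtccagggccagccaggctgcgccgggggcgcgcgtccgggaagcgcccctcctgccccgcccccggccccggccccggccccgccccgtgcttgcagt

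The EGR1 boxes, CCATATTAGG and CCATATATGG, begin 105 and 83 bases before the start. The EGR2 box begins 71 bases before the start and has the same letters as the nearer EGR1 box, which 9 of the 34943 windows hold on either strand. SRF has CCATATAAGG and CCATAAAAGG at 30 and 10 bases before its own start. Other motifs were searched on both strands. An EGR site, GCGNGGGCG, occurs in 9.41% of all windows and in windows of EGR1, EGR2 and SRF. A cyclic AMP response half-site, ACGTCA, occurs in 7.97% of all windows and in windows of EGR1, EGR2 and EGR4. The windows of ZFP36, IER2, IER5 and NR4A1 hold none of these letters. A match describes the sequence and is not a measurement of binding.

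**Figure D1:**
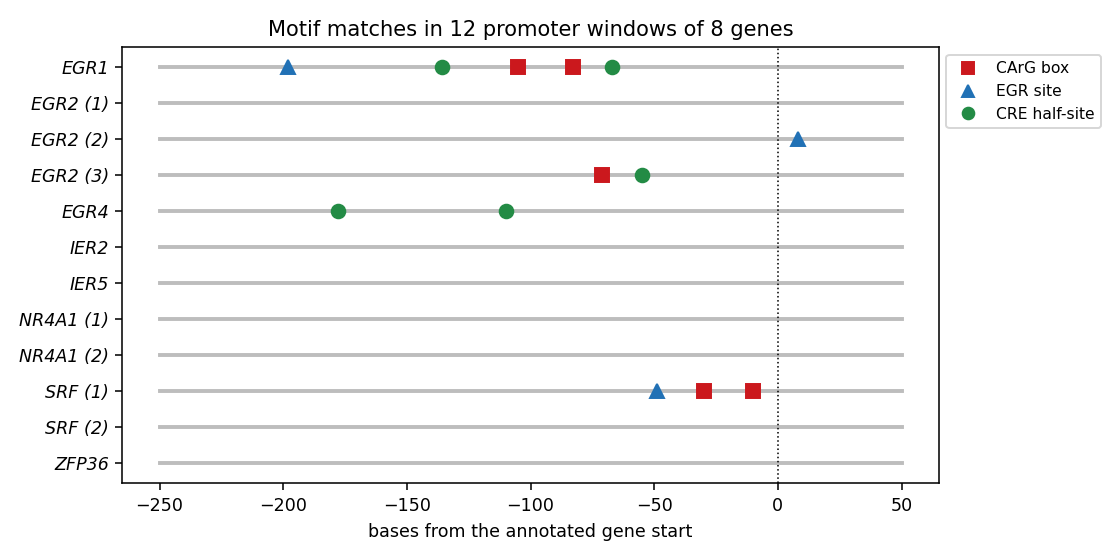
Motif matches on either strand in the 12 RefSeq promoter windows of 8 genes, by distance in bases of the match's first base from the annotated start. Each grey line is 1 window of 300 bases. CArG boxes lie upstream of EGR1, SRF and 1 start of EGR2.

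Total counts per library ran from 12302311 to 22662063. The libraries that stood furthest from their own group were DLD1 control 2 and DLD1 control 3. The log2 difference from the other libraries of the group had an SD of 0.539 and 0.443 over 11792 genes, against at most 0.262 in the 10 other libraries. It followed the GC content of the transcripts, with a Spearman rho of -0.793 in control 2 and 0.823 in control 3. In the 10 other libraries rho ran from -0.612 in SW480 lactate 3 to 0.495 in SW480 lactate 1. Transcripts of all 9 tested genes had a GC content above the median of tested genes, 48.47%, from 49.76% in IER5 to 66.01% in EGR4. DLD1 control 2 was the lowest of its group for 6 of the 9 genes and control 3 the highest for 8. The part of GC content in the results for DLD1 was not tested apart from fits without these libraries or with the trend removed, whose values stand beside the results. In the results for SW480 it was not tested apart from fits with the trend removed or with 1 library left out. The libraries labelled SW480 went against part of what is known of a colorectal epithelial line. Their controls had a mean of 0.965 CPM (counts scaled to a library total of 1000000) of EPCAM, 1.45 of CDH1 and 0.124 of CDX2, against 701.1, 694.9 and 137.8 in DLD1 controls, whereas the keratin KRT8 stood at 1316 and 3408 CPM. Of 4 fibroblast markers, SW480 controls had means of 81.22 CPM of DCN, 21.08 of COL1A1, 4.31 of LUM and 0.931 of COL1A2. In DLD1 controls these were 0.147, 1.94, 0.169 and 0.618 CPM. The highest DCN level, 87.63 CPM, was in an SW480-labelled library. Of 13 markers of immune, fibroblast, endothelial and erythroid cells, 7 stayed under 1 CPM in all 12 libraries.

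EGR1 and ZFP36 had the highest levels for their length in SW480. Over the longest transcript, SW480 controls averaged 83.06 CPM per kilobase of EGR1, 62.27 of ZFP36 and 53.75 of IER2, and the ranges of neighbours in this order overlapped. NR4A1 followed with 33.75, IER5 with 18.95, SRF with 7.91, EGR4 with 5.15, EGR2 with 2.67 and EGR3 with 1.33 CPM per kilobase, none of these overlapping its neighbours. In DLD1 controls IER2 came first with 24.9 CPM per kilobase and ZFP36 next with 20.86, their ranges overlapping. IER5, EGR1, SRF and NR4A1 lay between 10.93 and 6.59 with ranges that overlapped from each to the next, and EGR4, EGR3 and EGR2 lay between 0.164 and 0.122, also overlapping. Thus EGR1 stood at the top of the order in SW480 controls and in the middle in DLD1 controls. With lactate ZFP36 averaged 152.1 CPM per kilobase in SW480 and EGR1 139.6, with overlapping ranges. In DLD1 with lactate IER2 and ZFP36 stayed at the top with 34.04 and 30.76, and EGR1, at 16.58, no longer overlapped IER5, at 12.58.

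**Figure D2:**
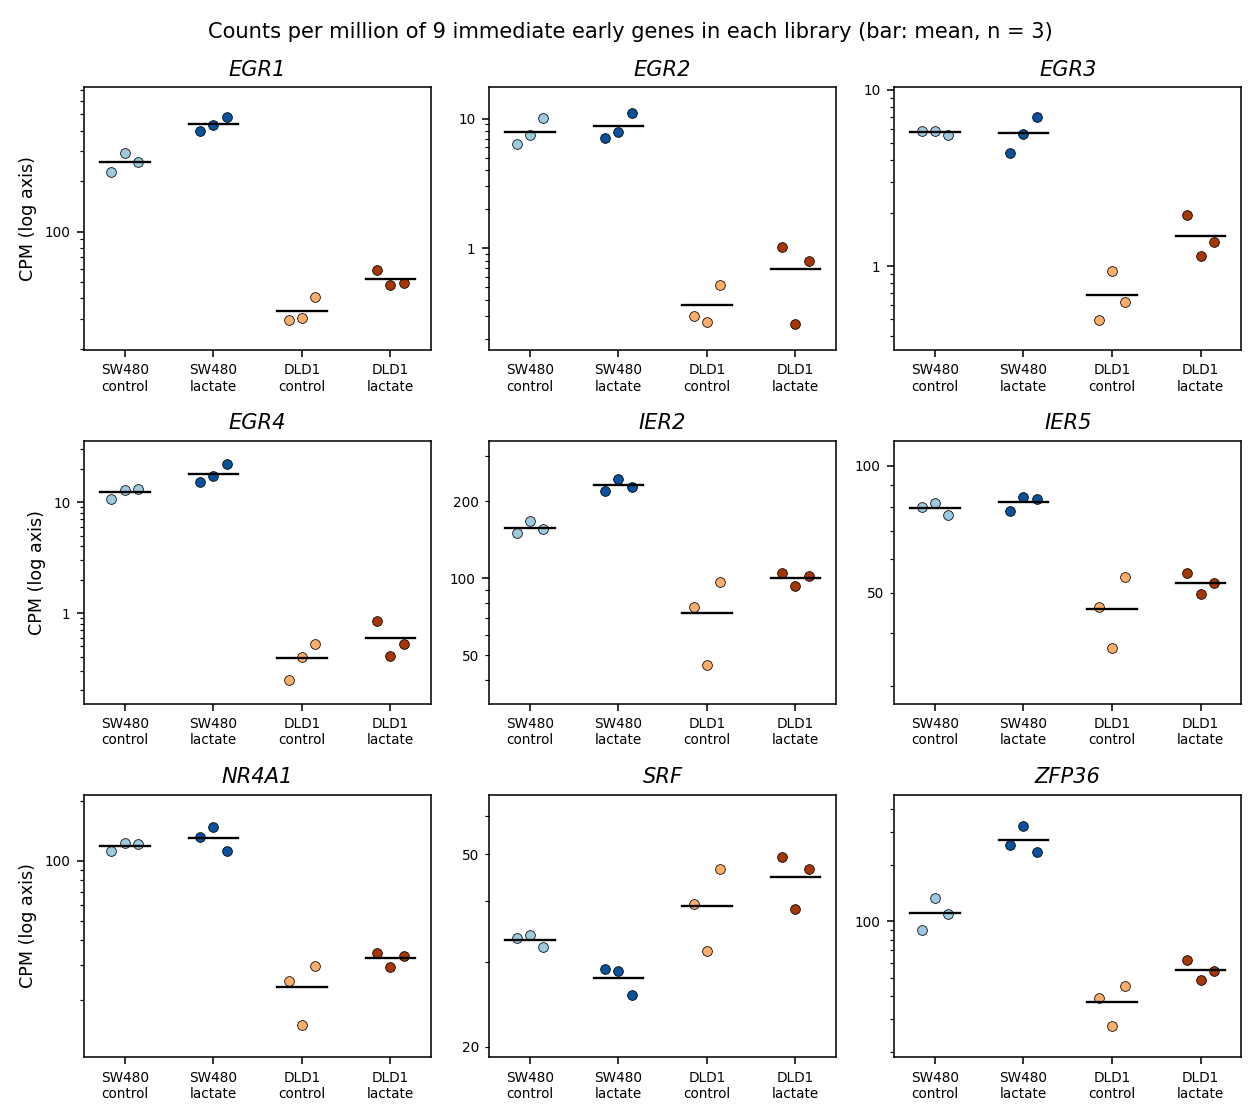
Level of each of the 9 tested genes in every library, in CPM on a log axis, with the mean of the 3 libraries of each group as a bar. The vertical range differs between panels. EGR1, EGR4, IER2 and ZFP36 lie higher in all SW480 lactate libraries than in all SW480 controls, and all genes but SRF lie lower in DLD1 than in SW480.

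The first comparison asked what lactate did to these genes in SW480. ZFP36, EGR1, EGR4 and IER2 rose and 5 genes did not pass the test. A gene was called at an adjusted p under 0.05 in edgeR's quasi-likelihood test, and 4 of 9 genes were called higher and 0 lower, where 6.83% of all tested genes were called higher and 5.58% lower. The median log2 fold change was 0.16 over the 9 genes and -0.01 over all tested genes.

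The decay factor gene ZFP36 (RefSeq GRCh38.p14 chr19:39406847-39409407) stood at 90.01, 133.7 and 109.9 CPM in SW480 controls 1, 2 and 3, and at 257.0, 324.0 and 234.0 CPM in lactate libraries 1, 2 and 3. All lactate libraries lay above all controls. The means were 111.2 ± 21.9 and 271.7 ± 46.8 CPM (SD, n = 3 each). ZFP36 rose 2.49-fold, by 1.32 ± 0.19 (SE) on the log2 scale, with an edgeR adjusted p of 0.000577. It remained called without any 1 of the 12 libraries, with log2 fold changes from 1.17 to 1.47.

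EGR1 (chr5:138465479-138469303) stood at 225.4, 295.1 and 261.4 CPM in SW480 controls and at 396.4, 433.6 and 484.6 CPM with lactate. Here too the groups did not overlap. The means were 260.6 ± 34.8 and 438.2 ± 44.3 CPM (SD, n = 3 each), a 1.71-fold rise. The log2 fold change was 0.77 ± 0.13 (SE), with an edgeR adjusted p of 0.00221. The call held without any 1 library, with log2 fold changes from 0.68 to 0.87.

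EGR4 (chr2:73290929-73293548), a low-level member of the EGR family, went from 10.74, 12.76 and 13.19 CPM in controls to 15.16, 17.21 and 21.92 CPM with lactate. Every lactate library lay above every control. It rose 1.498-fold (log2 0.58 ± 0.18 SE, edgeR adjusted p 0.0468). The immediate early regulator IER2 (chr19:13150411-13154911) went from 150.0, 167.5 and 155.6 CPM to 220.7, 244.0 and 228.8 CPM. Its groups did not overlap either. It rose 1.49-fold (log2 0.58 ± 0.18 SE, edgeR adjusted p 0.0496).

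The calls of EGR4 and IER2 lay close to the threshold. EGR4 lost its call, with adjusted p from 0.0507 to 0.219, without SW480 control 1, 2 or 3, SW480 lactate 2 or 3, DLD1 control 1 or DLD1 lactate 3. IER2 lost its call without any single library except DLD1 control 2 or 3, with adjusted p from 0.0658 to 0.195. In 30.79% of its exon bases IER2 overlaps AC011446.2, an antisense gene of GENCODE 29. Whether reads were counted by strand is not given in the sources used here, so reads of the 2 genes cannot be told apart.

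Among the other EGR genes, the zinc finger gene EGR2 (chr10:62811996-62819167) had 6.37, 7.40 and 10.01 CPM in SW480 controls and 7.11, 7.85 and 11.1 CPM with lactate, with overlapping groups. Its log2 fold change was 0.14 ± 0.27 (SE, edgeR adjusted p 0.783). EGR3 (chr8:22687659-22693480) had 5.86, 5.85 and 5.55 CPM and, with lactate, 4.37, 5.63 and 6.98 CPM. The EGR3 lactate libraries lay on either side of the controls (log2 fold change -0.01, edgeR adjusted p 0.996).

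The nuclear receptor gene NR4A1 (chr12:52022832-52059503) had 111.5, 122.3 and 121.8 CPM in SW480 controls and 131.1, 147.3 and 112.0 CPM with lactate, the third lactate library lying among the controls. Its log2 fold change was 0.16 ± 0.18 (SE, edgeR adjusted p 0.598), and 10.34% of its exon bases overlap the antisense gene AC025259.3. IER5 (chr1:181088700-181092900) had 79.84, 81.77 and 76.53 CPM and then 78.22, 84.53 and 83.21 CPM, a log2 fold change of 0.07 ± 0.12 (SE, edgeR adjusted p 0.753). SRF (chr6:43171269-43181506), the factor that binds the CArG box, had 33.52, 33.98 and 32.22 CPM in controls and 29.01, 28.68 and 25.55 CPM with lactate. All 3 SRF lactate libraries lay below all controls, with a log2 fold change of -0.23 ± 0.14 (SE, edgeR adjusted p 0.309). With the trend along GC content and length removed, SRF was called lower (log2 -0.34, edgeR adjusted p 0.00178), as were 14.6% of all genes in that fit. The groups did not overlap for 5 of the 9 genes, against 40.8% of all tested genes.

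In DLD1 the question was the same, and 0 of the 9 genes were called with lactate, where 0.381% of all tested genes were called. All 9 log2 fold changes were above 0, as were 53.7% of those over all genes. Their median was 0.53, against 0.02 over all genes. At an unadjusted p under 0.05, edgeR gave 5 genes, EGR1, EGR3, IER2, NR4A1 and ZFP36, where 18.5% of all genes passed. DESeq2 called 1 gene, EGR1, and 3.89% of all genes, and limma-voom called 0 and 0.455%. DLD1 groups did not overlap for 3 genes, EGR1, EGR3 and ZFP36, each higher with lactate, as in 10.7% of all genes.

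EGR1 stood at 29.48, 30.48 and 40.57 CPM in DLD1 controls 1, 2 and 3 and at 58.67, 48.27 and 49.16 CPM with lactate. All EGR1 lactate libraries were above the highest control. The means were 33.5 ± 6.13 and 52.0 ± 5.76 CPM (SD, n = 3 each). The log2 fold change was 0.61 ± 0.14 (SE), with an edgeR adjusted p of 0.0745 and a DESeq2 adjusted p of 0.00504. ZFP36 stood at 38.76, 27.6 and 45.41 CPM in controls and 62.0, 48.32 and 54.5 CPM with lactate. The lowest ZFP36 lactate library lay just above the highest control (log2 0.53 ± 0.19 SE, edgeR adjusted p 0.174).

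EGR3 rested on few reads in DLD1, with 10, 14 and 12 counts in controls and 32, 22 and 31 with lactate. These were 0.496, 0.938 and 0.625 CPM, then 1.94, 1.14 and 1.37 CPM, with no overlap. The log2 fold change was 1.10 ± 0.31 (SE, edgeR adjusted p 0.133). EGR4 had 5, 6 and 10 counts in controls and 14, 8 and 12 with lactate, and its groups overlapped (log2 0.56 ± 0.38 SE, edgeR adjusted p 0.435). EGR2, at 0.298, 0.268 and 0.521 CPM in controls and 1.03, 0.258 and 0.794 CPM with lactate, also overlapped (log2 0.87 ± 0.49 SE, edgeR adjusted p 0.35). These low counts limit the precision for EGR2, EGR3 and EGR4 in DLD1.

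IER2 stood at 77.07, 45.68 and 96.39 CPM in DLD1 controls and 104.7, 92.99 and 102.0 CPM with lactate. Control 3 lay between the lactate libraries and control 2 far below them (log2 0.43 ± 0.18 SE, edgeR adjusted p 0.238). NR4A1 went from 24.86, 15 and 29.58 CPM to 34.27, 29.24 and 33.32 CPM, with the same order of controls (log2 0.45 ± 0.19 SE, edgeR adjusted p 0.226). IER5 went from 46.1, 36.91 and 54.36 to 55.76, 49.51 and 52.78 CPM (log2 0.18 ± 0.12 SE, edgeR adjusted p 0.425). SRF went from 39.4, 31.55 and 46.61 to 49.46, 38.53 and 46.64 CPM (log2 0.17 ± 0.14 SE, edgeR adjusted p 0.504). In all 4 genes control 2 was lowest and control 3 highest. Among the DLD1 lactate libraries, lactate 1 was the highest and lactate 2 the lowest for all 9 genes.

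These values moved with the libraries included. Without DLD1 control 3, 10.4% of all tested genes were called higher, against 0.336% with all libraries. In that fit 4 of the 9 genes were called higher, EGR1 (log2 0.76, edgeR adjusted p 0.00445), IER2 (0.67, 0.0118), NR4A1 (0.65, 0.0196) and ZFP36 (0.69, 0.0209), and the log2 fold changes of EGR4, IER5 and SRF were 0.84, 0.31 and 0.30. Without DLD1 control 2, 0 of the 9 genes and 0.823% of all genes were called. The log2 fold changes of IER2, NR4A1, IER5 and SRF were then 0.19, 0.23, 0.05 and 0.04. Without DLD1 lactate 1 those of EGR2, EGR4 and SRF were 0.53, 0.27 and 0.10. Without DLD1 control 1 that of EGR4 was 0.30, and without DLD1 lactate 2 that of SRF was 0.28. With the GC and length trend removed, EGR1 had a log2 fold change of 0.44, ZFP36 0.35, NR4A1 0.21, IER2 0.17 and SRF -0.14. In that fit 0 of the 9 genes and 3.32% of all genes were called.

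**Figure D3:**
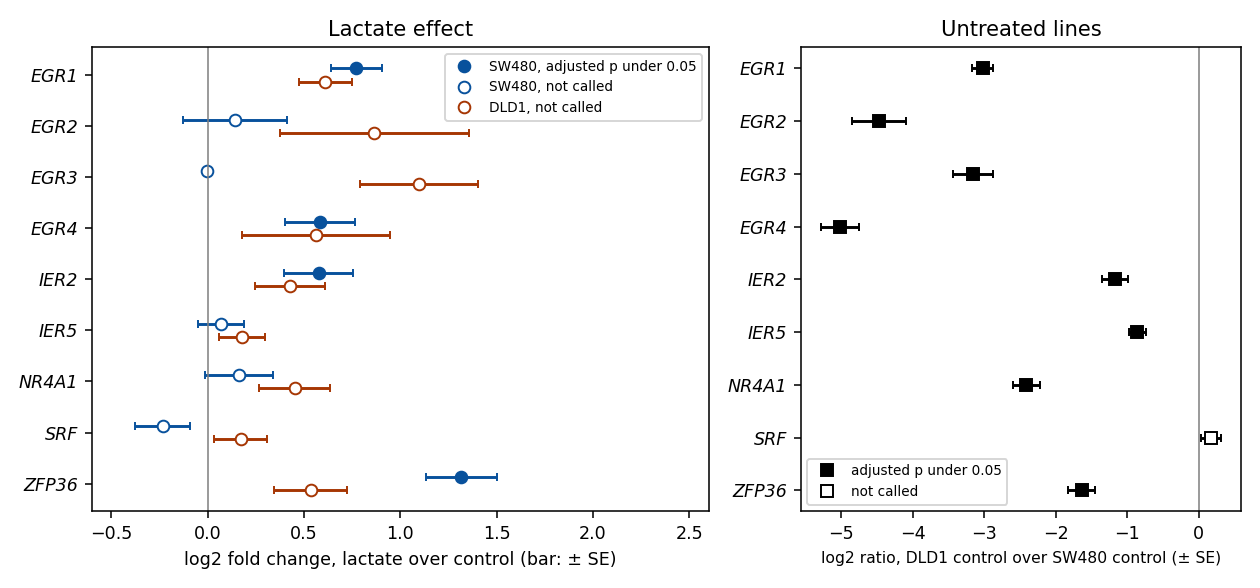
Left, log2 fold change of lactate over control for the 9 genes in SW480 (blue) and DLD1 (orange). Right, log2 ratio of DLD1 control over SW480 control. Bars are standard errors from edgeR (left out for EGR3 in SW480, where the change was near 0), and filled symbols have an adjusted p under 0.05, which 4 genes reach with lactate in SW480, 0 in DLD1 and 8 between the untreated lines.

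Whether lactate acted differently in the lines was tested as an interaction, taking the effect in DLD1 less that in SW480. Of the 9 genes 0 were called, where 0.728% of all tested genes were. At an unadjusted p under 0.05, edgeR gave 2 genes, against 16.8% of all genes. DESeq2 and limma-voom called 0, and 4.05% and 0.541% of all genes. EGR3 had a difference of 1.10 ± 0.38 (SE, edgeR adjusted p 0.175) on the log2 scale, towards DLD1. ZFP36 had a difference of -0.78 ± 0.26 (SE, edgeR adjusted p 0.161), towards SW480, and was called with the GC and length trend removed (-0.98, adjusted p 0.0202) and without the filter on low counts (-0.78, adjusted p 0.00197). In those fits 7.89% and 2.32% of all genes were called. EGR1, whose effect passed the test in SW480 and not in DLD1, differed by -0.16 ± 0.19 (SE, edgeR adjusted p 0.683). For IER2 the difference was -0.15 ± 0.25 (SE, edgeR adjusted p 0.799), and for EGR4 it was -0.02. The difference was 0.41 ± 0.20 for SRF and 0.29 ± 0.26 for NR4A1 (SE, edgeR adjusted p 0.314 and 0.578).

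Untreated DLD1 had less of 8 of the 9 genes than untreated SW480, in a comparison where 70.8% of all tested genes were called and 37.3% were called lower. The same controls serve in the lactate comparisons. The EGR family differed most. EGR4 was 32.5-fold lower in DLD1 (log2 -5.02 ± 0.27 SE, edgeR adjusted p 2.51e-10) and EGR2 22.2-fold lower (log2 -4.47 ± 0.38 SE, adjusted p 6.20e-08). EGR3 was 8.89-fold lower (log2 -3.15 ± 0.28 SE, adjusted p 9.87e-08) and EGR1 8.14-fold lower (log2 -3.03 ± 0.14 SE, adjusted p 6.40e-11). EGR2 and EGR4 reached the level of 10 counts in a library of median size, 0.592 CPM, in 0 of 3 DLD1 controls and in all 6 SW480 libraries. They thus entered the tests through SW480, where they were high.

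NR4A1 was 5.34-fold lower in DLD1 controls (log2 -2.42 ± 0.19 SE, edgeR adjusted p 2.31e-08) and ZFP36 3.12-fold lower (log2 -1.64 ± 0.19 SE, adjusted p 1.93e-06). IER2 and IER5 differed least among those called, 2.26-fold and 1.81-fold (log2 -1.18 ± 0.18 and -0.86 ± 0.12 SE, edgeR adjusted p 4.10e-05 and 1.39e-05). SRF did not pass (log2 0.17 ± 0.14 SE, edgeR adjusted p 0.276), except without DLD1 control 2, where it was called higher (log2 0.31, adjusted p 0.021). The 8 calls held without any 1 library. The EPCAM, CDH1 and CDX2 levels given above differ between the same groups, and the part of that difference in the levels of these genes was not tested.

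Lactate left the order of the lines in place. For 8 of the 9 genes, all but SRF, every DLD1 lactate library lay below every untreated SW480 library, as for 38.7% of all tested genes. The mean of EGR1 in DLD1 with lactate was 20% of that in SW480 controls, that of EGR4 4.88%, that of NR4A1 27.2%, that of ZFP36 49.4% and that of IER5 66.4%.

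IER3 (chr6:30743199-30744547) was listed at 0 in all 12 libraries. Of 32 protein-coding genes of the table within 500 kb of IER3, 20 were also at 0 throughout and 24 (75%) held at most 3 counts over all libraries, against 21% of 875 other protein-coding genes of chromosome 6. The tubulin gene TUBB, FLOT1, MRPS18B and GNL1, which most cells use, were among those at 0. The 0 of IER3 is therefore given as listed, without a statement on its expression.

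The 9 genes were set against each other by Pearson's r of log2 CPM over the 12 libraries, after the mean of each line was subtracted. Each r is a description, since all pairs share libraries and depth. Of 36 pairs 35 were above 0, with a median r of 0.598. Over the 6 libraries of each line, 24 pairs were above 0 in SW480 and all 36 in DLD1, with medians of 0.29 and 0.766. Pairs of all tested genes were not counted, so these counts have no share to be read against. The DLD1 libraries include controls 2 and 3, which followed GC content, and its part in these r was not tested. EGR1 went with ZFP36 (0.909), EGR4 (0.872) and IER2 (0.834), and each of these was above 0.7 in either line. NR4A1 and IER5 had an r of 0.926, which was 0.591 in SW480 and 0.973 in DLD1. SRF had opposite signs in the lines with every gene but NR4A1. Its r with EGR1 was -0.848 in SW480 and 0.691 in DLD1, and with ZFP36 -0.681 and 0.888, giving 0.00468 and -0.00516 over all 12 libraries. With IER5 it was -0.364 in SW480 and 0.957 in DLD1, and with NR4A1 0.0115 and 0.908. Over the 11 libraries without DLD1 control 2, 32 of 36 pairs were above 0, with a median r of 0.581. There NR4A1 and IER5 had an r of 0.716. In the same 11 libraries SRF had an r of -0.312 with EGR1 and -0.362 with ZFP36, and of 0.351 with IER5 and 0.346 with NR4A1. Over the 10 libraries without DLD1 control 2 and control 3, 32 of 36 pairs were above 0, with a median r of 0.631.

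Among other tested genes with a mean of at least 5 CPM, the patterns most like EGR1 over the same 12 libraries were those of AGAP1 (r 0.98), EPN2 (0.979) and SNAI1 (0.976). SNAI1, a transcription factor of epithelial-mesenchymal transition, had log2 fold changes of 1.31 in SW480 and 1.13 in DLD1. Those of AGAP1 were 0.39 and 0.27, and those of EPN2 0.28 and 0.21. The genes were picked by likeness over the same control and lactate libraries, so their changes are no separate result. The patterns most like ZFP36 were those of RAP1GAP (0.987), PIM1 (0.986) and FOSL1 (0.985). IER3 has no such pattern.

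Other genes of these pathways were counted from 5 lists, which like the 10 genes were chosen with earlier results of these data known. Their counts are to be read against the share of all tested genes called higher in the same fit. In SW480 this was 6.83%, and 12.4% without DLD1 control 2, 9.2% without DLD1 control 3, 13.6% with the GC and length trend removed and 9.07% with DESeq2. In DLD1 it was 0.336%, and 0.707% without DLD1 control 2, 10.4% without DLD1 control 3, 1.81% with the trend removed and 1.99% with DESeq2. An unadjusted edgeR p under 0.05 was reached by 18.5% of all genes in DLD1. Of 5 close relatives of the genes above, 3 rose with lactate in SW480 (6.83% of all genes) and 0 were called in DLD1 (0.381%), with median log2 fold changes of 0.78 and 0.18. ZFP36L1, a decay factor of the ZFP36 family, rose from 180.7 ± 33.6 to 486.5 ± 70.6 CPM (SD, n = 3 each) in SW480 (log2 1.46 ± 0.15 SE, edgeR adjusted p 8.13e-05). NR4A2 rose from 12.5 to 24.95 CPM (log2 1.02 ± 0.14 SE, adjusted p 0.000599) and NR4A3 from 11.7 to 19.8 CPM (log2 0.78 ± 0.20 SE, adjusted p 0.0203). NR4A3 was not called without SW480 control 1 or 3 or SW480 lactate 2 or 3 (adjusted p 0.0574 to 0.12). In the difference between lines, ZFP36L1 was called, towards SW480 (log2 -1.25 ± 0.21 SE, adjusted p 0.0168), but not without SW480 control 1 or 3, SW480 lactate 2 or DLD1 lactate 2 or 3 (adjusted p 0.0551 to 0.0688). In DLD1 edgeR gave 0 of the 5 relatives an unadjusted p under 0.05, and DESeq2 and limma-voom called 0. Without DLD1 control 3, 1 relative was called higher in DLD1, as were 10.4% of all genes.

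Of 7 genes for SRF partners and EGR corepressors, 2 rose in SW480 and 0 were called in DLD1, with medians of 0.30 and -0.03. NAB2, a corepressor that binds EGR proteins and is itself an EGR target, rose from 59.0 to 103.3 CPM in SW480 (log2 0.84 ± 0.15 SE, edgeR adjusted p 0.00322). ELK3, a partner of SRF, rose from 109.6 to 157.4 CPM (log2 0.54 ± 0.10 SE, adjusted p 0.00408). The SW480 count was 6 without DLD1 control 2, 4 without DLD1 control 3 and 5 with the GC and length trend removed, where all-gene shares were 12.4%, 9.2% and 13.6%. DESeq2 called 3. In DLD1 the count was 2 without DLD1 control 3, 2 genes had an unadjusted edgeR p under 0.05, and DESeq2 and limma-voom called 0. Of 15 kinase and RAS genes signalling to SRF partners and ZFP36, including EGFR and MAPK3, 0 were called in either line (both medians 0.08). At an unadjusted p under 0.05 edgeR gave 3 of them in SW480 and 1 in DLD1. In DLD1 18.5% of all genes passed at that p. In SW480 this share was not taken, so the 3 genes have nothing to be read against. Limma-voom called 0 in either line, and DESeq2 called 2 in SW480 and 0 in DLD1. The kinase list counted 2 higher in SW480 without DLD1 control 2, 1 without DLD1 control 3 and 3 with the trend removed. In DLD1 it counted 1 higher without DLD1 control 2 or with the trend removed. Without DLD1 control 3 it counted 2 higher and 2 lower, where 10.4% of all genes were called higher and 10.6% lower.

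Of 25 other immediate early genes, 19 rose in SW480 and 5 in DLD1, with medians of 0.82 and 0.44, and 0 fell in either. The SW480 count was 13 without SW480 control 1 and 14 without SW480 control 3 or SW480 lactate 2. Without DLD1 control 2 it was 21, with 1 gene called lower, as were 11.6% of all genes. The shares of all genes called higher in SW480 without these 4 libraries were 2.42%, 3.75%, 3.23% and 12.4%. In SW480 the smallest p values belonged to PHLDA1 (log2 1.66 ± 0.14 SE, edgeR adjusted p 2.08e-05), the survival gene MCL1 (1.59 ± 0.14), CYR61, now CCN1 (1.36 ± 0.13), and the phosphatase gene DUSP5 (1.71 ± 0.17). In DLD1 they belonged to CTGF, now CCN2 (1.52 ± 0.20 SE, edgeR adjusted p 0.00748), and the AP-1 genes FOS (1.41 ± 0.19), JUN (1.10 ± 0.18) and FOSB (1.25 ± 0.20). The DLD1 count was 0 without DLD1 control 1, 1 without DLD1 lactate 1, 2 without DLD1 lactate 2 and 12 without DLD1 control 3. The shares of all genes called higher in these fits were 0.0111%, 0.0166%, 0.0555% and 10.4%. CTGF, FOS, JUN and FOSB were not called without DLD1 control 1 (adjusted p 0.0539 for CTGF and FOS, 0.116 for JUN and FOSB). Nor were FOS, JUN and FOSB without DLD1 lactate 1, or JUN and FOSB without DLD1 lactate 2 (adjusted p 0.0599 to 0.146). With each line fitted alone, where 1 gene in all was called in DLD1, these 4 genes had adjusted p from 0.187 to 0.281, and FOSB was not called in limma-voom (0.0523). DESeq2 called 9 higher and 1 lower in DLD1, where 1.99% of all genes were called higher and 1.9% lower. FOS, whose promoter holds a well-known SRF site, had a log2 fold change of 0.12 ± 0.15 in SW480 (edgeR adjusted p 0.663). Its difference between lines was called, 1.29 ± 0.25 towards DLD1 (SE, edgeR adjusted p 0.0271). With 1 library left out, FOS kept that call in 3 fits, those lacking DLD1 control 2, DLD1 control 3 or SW480 lactate 1, and had an adjusted p of 0.0559 to 0.0935 in the others. In limma-voom its adjusted p was 0.0556. MCL1, PHLDA1 and KLF6 were called towards SW480, with differences of -1.60, -1.55 and -0.83. MCL1 and PHLDA1 kept this call without any 1 library, and KLF6 lost it without SW480 control 1 or 3, SW480 lactate 2 or DLD1 lactate 2 or 3 (adjusted p 0.0532 to 0.0688). The count towards SW480, 3 here, was 9 with DESeq2, 11 with the GC and length trend removed and 3 in limma-voom, and ran from 2 to 8 with 1 library left out. The shares of all genes called towards SW480 were 0.404%, 2.44%, 4.34% and 0.319%, and from 0.0389% to 4.4% with 1 library left out.

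Of 14 cytoskeletal targets of SRF and MRTF, 12 were tested, 2 rose in SW480 and 0 were called in DLD1, with medians of 0.30 and 0.25. ACTB, encoding beta-actin, rose from 3516 to 5816 CPM in SW480 (log2 0.75 ± 0.15 SE, edgeR adjusted p 0.00659), and ACTN1 from 138.2 to 197.6 CPM (log2 0.54 ± 0.12 SE, adjusted p 0.00783). Neither was called without SW480 control 1 (adjusted p 0.0517 and 0.0606). The SW480 count was 5 without DLD1 control 2 or with the trend removed, and 4 without DLD1 control 3. In DLD1 the count was 7 without DLD1 control 3, where 10.4% of all genes were called higher, and 1 with the trend removed (1.81%) or with DESeq2 (1.99%), and 4 genes had an unadjusted edgeR p under 0.05.

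**Figure D4:**
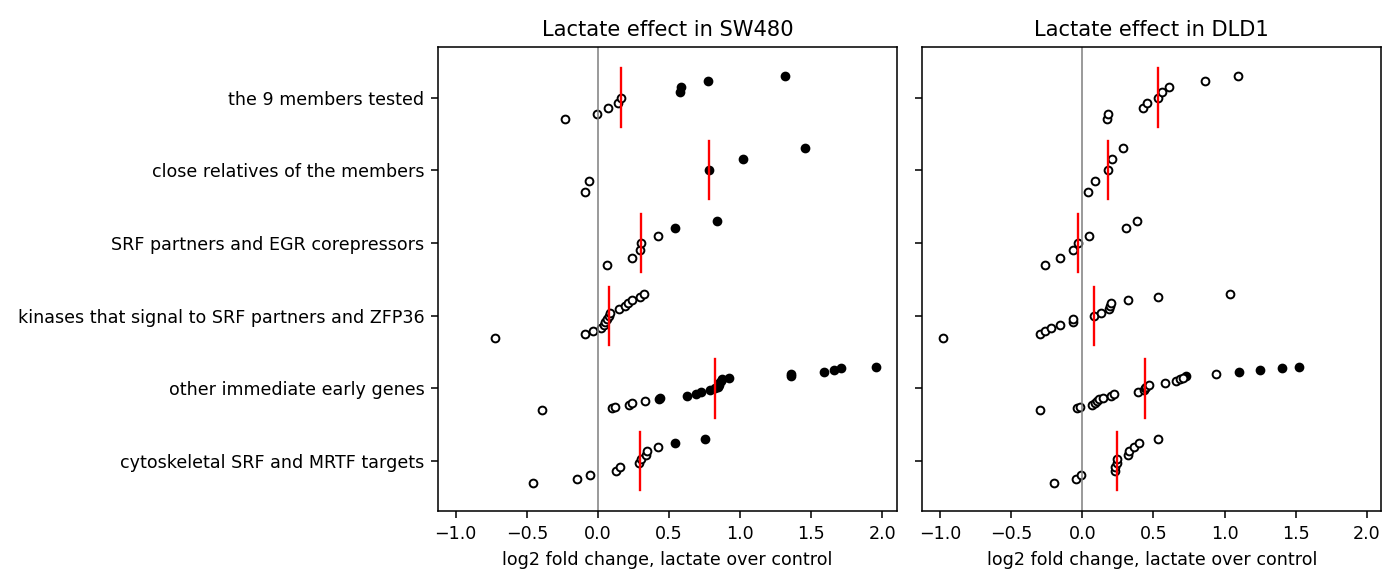
Log2 fold change of lactate over control for the 9 tested genes and the genes of 5 related lists, in SW480 (left) and DLD1 (right). Each point is 1 gene, filled where the edgeR adjusted p is under 0.05, and the red line is the median of the list. Of the other immediate early genes 19 are filled in SW480 and 5 in DLD1.

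**Figure D5:**
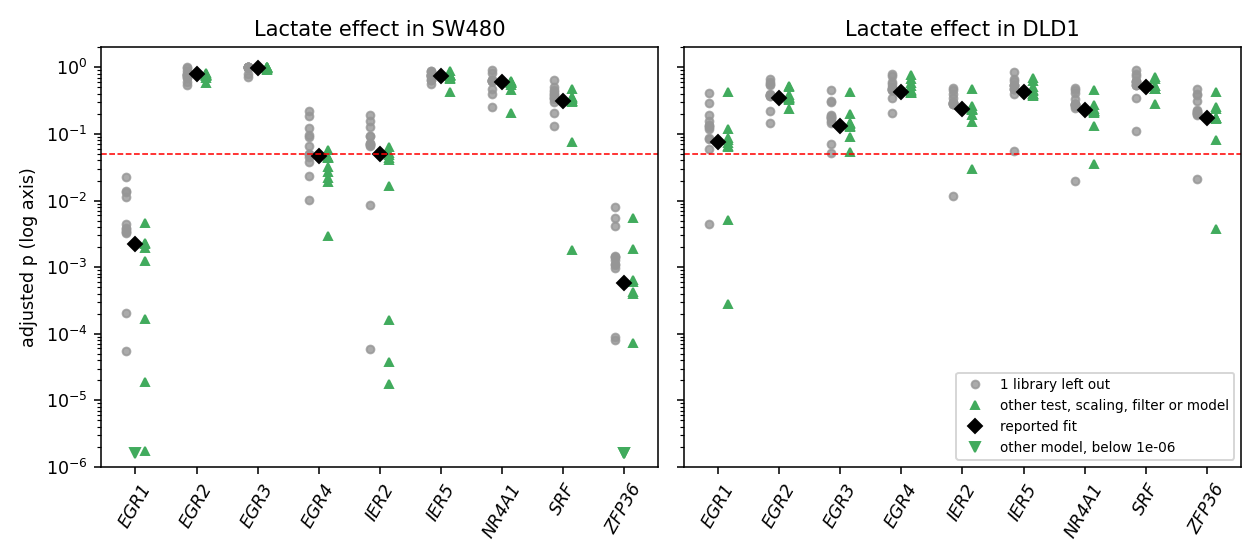
Adjusted p (log axis) of the lactate effect on each gene in the reported edgeR fit (diamonds), with 1 library left out (circles) and under other tests, scalings, filters or models (triangles). The dashed line is 0.05 and downward triangles stand for values under the axis. EGR1 and ZFP36 stay under the line in SW480 in every fit, and EGR4 and IER2 lie on both sides of it.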

How the data were processed

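RNA of 12 libraries was sequenced. The authors deposited whole-number read counts per gene symbol, and 0 columns were left unused. The submitters' processing notes name HISAT2 and GRCh38. The version of the aligner, the counter, the gene models and the strandedness were not given in the sources used here.

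Counts were filtered with filterByExpr by group, scaled by TMM and fitted with edgeR 4.0.16 in R 4.3.3 (quasi-likelihood, robust, 1 mean per group, two-sided). Benjamini-Hochberg adjustment ran over all 17572 tested genes, and calls were made at 0.05. SE is the size of the log2 change divided by the root of its F statistic. CPM is relative to the library total. The fit was also run on simulated counts. These held no trend along GC content, so that run does not bear on libraries with such a trend.

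Positions and promoters come from RefSeq on GRCh38.p14, and transcript lengths and GC content (known for 86.1% of tested genes) from GENCODE 29. The 10 genes and the lists were chosen with earlier results of these data known. All 10 genes are named, with up to 4 called genes of smallest p per list and line, and the 3 genes most correlated with EGR1 and with ZFP36 (log2 CPM with a prior count of 2). KLF6, EGFR, MAPK3 and the genes near IER3 were named after their values were seen. Alternatives were other scalings, no filter, a filter at 1 CPM in 3 libraries, DESeq2 1.42.0, limma-voom (limma 3.58.1), replicate number as a block, each line alone, removal of the GC and length trend (splines with 5 degrees of freedom), and leaving out each library.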

Additional observations from a re-analysis of the deposited data

How the results depend on the processing

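Of the values of single genes, 688 kept direction and side of the threshold under the alternatives, 13 gained a call, 20 lost one and 17 changed sign. With lactate in SW480, EGR1 and ZFP36 kept their calls under every alternative run, and the 8 calls between untreated lines did so too. The count of genes called higher in SW480, 4, ran from 2 to 4 with 1 library left out. The share of all genes called higher ran from 2.42% to 12.4% in those fits. With the replicate number as a block the SW480 count was 2, since EGR4 and IER2 lost their calls (adjusted p 0.0574 and 0.063). With the block 5.57% of all genes were called higher in SW480, and 34 of all genes (0.193%) were called in DLD1. Samples of the same number did not deviate together in both lines (r from -0.0708 to 0.173) and not every sample correlated best with its own number, so the numbers were not taken as pairs. IER2 also lost its call under upper quartile scaling (adjusted p 0.0514). With the GC and length trend removed, 1 gene, SRF, was called lower in SW480.

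In DLD1 the count of 0 became 4 without the filter on low counts (2.37% of all genes called) and 1 with DESeq2 (3.89%). It ran from 0 to 4 with 1 library left out, where 0.0166% to 21% of all genes were called. DESeq2 gave no adjusted p for EGR3 there. For the difference between lines, 1 gene, ZFP36, was called lower without the filter and with the trend removed. SRF was called higher between untreated lines in 1 leave-one-out fit (range 0 to 1).

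Over all genes, 2181 calls in SW480 became 4781 with each line fitted alone, 4956 with the trend removed and 689 to 4347 with 1 library left out. The 67 in DLD1 became 855 without the filter, 683 with DESeq2, 1 with each line alone, 583 with the trend removed and 3 to 3791 with 1 library left out. The 128 for the difference became 837 without the filter, 712 with DESeq2, 1387 with the trend removed and 9 to 1508 with 1 library left out. Calls between untreated lines ran from 11737 to 13260 with 1 library left out and from 11598 to 14173 over the other alternatives. The cause of these moves was not tested.

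The changes of sign were in genes and comparisons without a call in the reported fit. EGR3 in SW480 was 0.01 under median-of-ratios scaling (0.0128) and DESeq2 (0.0126), 0.000659 with each line alone and -0.13 to 0.17 with 1 library left out. EGR2 in SW480 ran from -0.0245 to 0.357. SRF had a log2 change of 0.17 in the reported fit, both with lactate in DLD1 and between untreated lines. With the trend removed these were -0.14 and -0.0688. The difference between lines ran from -0.31 to 0.26 for EGR4, -0.391 to 0.0887 for IER2 and -0.0218 to 0.238 for IER5. Scaling moved the median of all genes by at most 0.0292 on the log2 scale.

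Low counts limit the precision for EGR2, EGR3 and EGR4 in DLD1. The libraries number 3 per group, and the labels give neither dose nor time.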
